A study of Arabidopsis thaliana with 15 samples.

Results

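The genes described here are 10 nuclear genes of the Calvin cycle, followed through the first 4 h of light given to dark-grown Arabidopsis seedlings. They comprise 8 genes of plastid enzymes and 2 genes of the linker protein CP12. They were chosen by locus from the 33323 genes listed in each library, and all 10 were found. They are PRK (AT1G32060), SBPASE (AT3G55800), a plastid fructose-1,6-bisphosphatase gene, cpFBPase (AT3G54050), and the aldolase genes FBA1 (AT2G21330) and FBA2 (AT4G38970). The others are the glyceraldehyde-3-phosphate dehydrogenase genes GAPA (AT3G26650), GAPA-2 (AT1G12900) and GAPB (AT1G42970), and CP12-1 (AT2G47400) and CP12-2 (AT3G62410). Seedlings of wild-type Col-0 stood on agar plates for 4 days in the cold and 4 days in darkness at 22 °C. They then received white light of 100 µmol per square metre and second for 4 h (L4h), stayed in darkness for 4 h more (D4h), or were taken at once (Dark), and RNA came from the parts above the root. Total RNA was sequenced for L4h, D4h and Dark, and polysome-bound RNA, the mRNA that sedimented with ribosomes, for L4h and Dark, with 3 libraries in each of the 5 groups. The labels do not say whether the 3 came from separate cultures, so p-values measure only the spread between these libraries. Whether more cells expressed a gene or each cell held more of its mRNA cannot be told apart in RNA of these aerial parts.

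The Calvin cycle fixes carbon dioxide in the chloroplast stroma and turns the product into triose phosphates with ATP and NADPH from the light reactions. Chloroplast GAPDH, built of A and B subunits, carries out the reductive step. Aldolase joins triose phosphates into sugar bisphosphates, the bisphosphatases SBPase and FBPase remove a phosphate in irreversible steps, and phosphoribulokinase (PRK) remakes the acceptor ribulose bisphosphate. CP12 is a small, largely unfolded protein that binds GAPDH and PRK into an inactive complex in the dark and releases them when thioredoxin reduces the proteins in light. All these genes lie in the nucleus, and a seedling that leaves darkness has to build the enzymes together with the rest of the photosynthetic machinery.

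Promoter sequences of 3 of the genes are shown because they differ in the light-associated motifs they hold. They are the 250 bases before the annotated gene start, read from the RefSeq TAIR10.1 genome on the gene's strand, with the searched motifs in capitals. The CP12-2 sequence was cut to the 122 bases that no neighbouring gene covers.
cpFBPase, chr3:20016587-20016836, + strand: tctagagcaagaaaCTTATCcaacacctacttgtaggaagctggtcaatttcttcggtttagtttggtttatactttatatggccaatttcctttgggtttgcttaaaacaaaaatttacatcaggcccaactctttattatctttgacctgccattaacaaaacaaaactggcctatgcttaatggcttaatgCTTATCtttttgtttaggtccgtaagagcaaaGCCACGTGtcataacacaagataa
PRK, chr1:11531949-11532198, + strand: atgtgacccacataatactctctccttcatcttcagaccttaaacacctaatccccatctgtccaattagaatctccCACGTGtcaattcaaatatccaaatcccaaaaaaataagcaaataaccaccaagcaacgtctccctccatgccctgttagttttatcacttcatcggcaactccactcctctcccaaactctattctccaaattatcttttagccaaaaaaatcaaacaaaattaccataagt
CP12-2, chr3:23090822-23090943, + strand: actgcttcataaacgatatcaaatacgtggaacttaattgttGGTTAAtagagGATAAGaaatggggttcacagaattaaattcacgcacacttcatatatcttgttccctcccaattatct

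A set of 8 motifs was searched on both strands of the 250 bases, and 9 of the genes are described here. The G-box CACGTG stood in PRK and cpFBPase, and in 6.58% of 26711 promoters of the same length. The I-box core GATAAG stood in cpFBPase, as 2 copies on the other strand, and in CP12-2, against 12.2% of promoters. CP12-2 also held the GT-1 core GGTTAA, found in 14.7% of promoters. SORLIP1, GCCAC, was found in cpFBPase, where it overlaps the G-box, and in 15.3% of promoters. The CCA1 site AAAATCT lay in SBPASE and FBA1, against 16.5% of promoters. That of SBPASE lies outside the 49 bases between a neighbouring gene and the SBPASE start. The evening element AAAATATCT, the AE box AGAAACAA and the Gap box were in none of these 9 windows, against 2.4%, 4.91% and 1.03% of promoters. GAPA, GAPA-2, GAPB and FBA2 held none of the 8 motifs. Between a neighbouring gene and the gene start, GAPB had 54 free bases and GAPA had 0, as its neighbour overlaps the start. The listed gene lengths matched an annotated transcript for 1 of the 10 genes, so the gene starts used by the authors may differ from those used for these windows.

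Reads counted in genes came to between 60.8 and 100.9 M per library. RNA markers of root hairs and root nitrate uptake (6 genes) lay between 0 and 3.0 RPKM (reads per kilobase of gene and M reads) in every library, while 3 endodermis genes reached 66.2 to 482 RPKM, and 8 shoot markers were all detected, from 2.4 to 1339 RPKM. Replicate 1 stood apart from replicates 2 and 3 in all 5 groups, and the results that it moves are given with and without it. D4h replicates 2 and 3 differed by a median of 0.0646 log2 units, less than any other pair of libraries of a group. Their chi-square per degree of freedom against counting error was 5.76, and the next lowest, of Dark total RNA replicates 2 and 3, was 49.26. A value above counting error does not separate libraries of the same plants or RNA from libraries of different plants. Whether D4h replicates 2 and 3 shared material was not tested, and they were counted as separate libraries. Taking them as 1 library was tried only for the comparisons with D4h, not for L4h against Dark, which shares their fit.

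In total RNA all 8 enzyme genes and CP12-2 rose in L4h relative to Dark, by 5.38-fold to 47.9-fold, while CP12-1, already abundant in darkness, had an estimate of 1.81-fold and did not pass the test without pairing. Of the 10 genes, 9 passed at an adjusted p under 0.05, against 12.6% of all genes tested that were called higher and 10.2% called lower. In all 10, every L4h library lay above every Dark library, as held for 21.5% of genes. The median log2 change of the 10 was 3.6, beside -0.02 over all genes tested. None of the tissue markers was called in the same comparison (edgeR). The 5 of 9 root markers that passed the filter were all negative (median -0.87), with list sums of 327, 598 and 722 RPKM in L4h and 469, 992 and 917 RPKM in Dark. All 8 shoot markers were positive (median 0.44), with sums of 543, 663 and 950 RPKM in L4h and 573, 654 and 529 RPKM in Dark. Their part in the result was not tested.

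**Figure D1:**
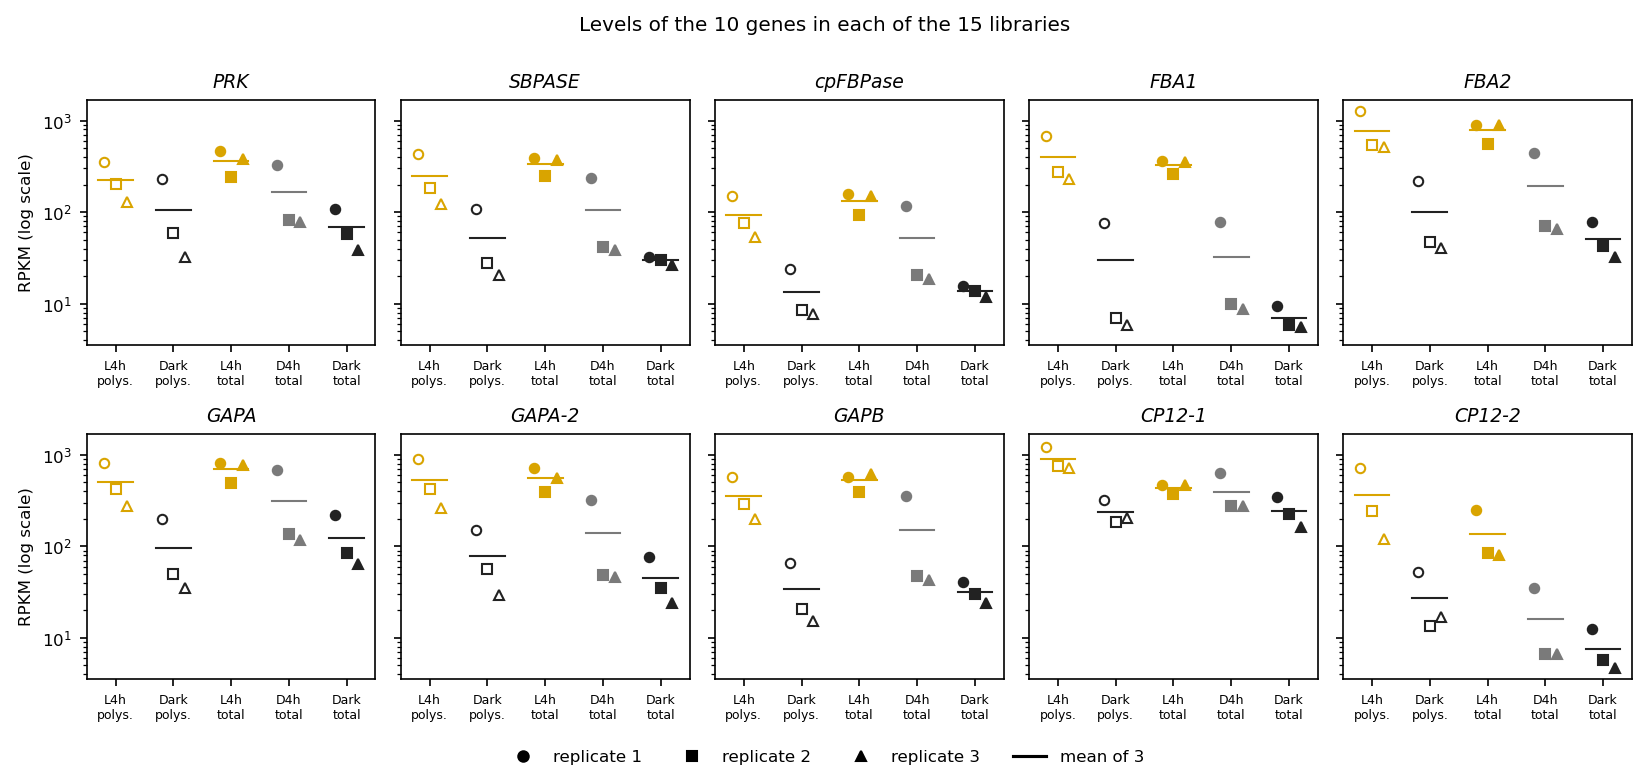
RPKM (log scale) of each gene in every library, by group, with polysome-bound RNA as open and total RNA as filled symbols. Points are libraries, with symbol shape for the replicate number, and lines are means of 3. In total RNA all 3 L4h libraries lie above the 3 Dark libraries for each of the 10 genes, and D4h replicate 1 lies far above D4h replicates 2 and 3.

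The A and B subunit genes of GAPDH carry the reductive step. GAPA was at 812, 491 and 770 RPKM in L4h and at 219, 83.9 and 63.5 RPKM in Dark (replicates 1, 2 and 3 here and below). The lowest L4h library held more GAPA mRNA than the highest Dark library, although Dark replicate 1 stood well above the other two. GAPA rose by 2.52 ± 0.77 on the log2 scale (SE, edgeR, adjusted p = 0.047). GAPA-2, the second A subunit gene, had 712, 389 and 551 RPKM in L4h against 75.7, 35.2 and 23.9 RPKM in Dark. Its groups were further apart than those of GAPA, with a log2 change of 3.64 ± 0.85 (adjusted p = 0.02). GAPB had 568, 393 and 611 RPKM in L4h, against 40.7, 29.9 and 23.8 RPKM in Dark. GAPB, whose subunit carries the C-terminal extension that lets GAPDH aggregate on its own, had the largest estimate of the 3 GAPDH genes, a rise of 4.09 ± 0.84 (adjusted p = 0.012).

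Of the 10 genes, the plastid aldolase gene FBA1 showed the largest change. FBA1 reached 366, 258 and 352 RPKM in L4h, against 9.55, 5.79 and 5.51 RPKM in Dark. This gene was the lowest of the 10 in Dark by its mean, and it rose by 5.58 ± 0.92 on the log2 scale (47.9-fold, adjusted p = 0.0055), which ranked it 106th of 21735 genes. FBA2, its close relative, had 898, 548 and 891 RPKM in L4h against 77.8, 42.7 and 32.4 RPKM in Dark. FBA2 rose by 3.96 ± 0.81 (adjusted p = 0.012) and had the highest mean of the 10 in L4h, 779 ± 200 RPKM (SD, n = 3). A further plastid aldolase gene outside the 10, FBA3, was named after its value was seen and was not called (-0.16 ± 0.16, edgeR, adjusted p = 0.52). FBA3 had 58.8, 80.8 and 87.3 RPKM in L4h and 77.6, 90.7 and 90.8 RPKM in Dark.

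SBPASE and cpFBPase, the bisphosphatase genes among the 10, both rose. SBPASE, whose product acts only in the regenerative branch of the cycle, had 391, 249 and 375 RPKM in L4h and 32.3, 30.1 and 26.6 RPKM in Dark. Its Dark libraries lay close together (29.7 ± 2.85 RPKM, SD, n = 3), and the log2 change was 3.55 ± 0.7 (adjusted p = 0.011). The gene cpFBPase had 156, 92.2 and 149 RPKM in L4h and 15.5, 13.9 and 11.8 RPKM in Dark. It was lower than SBPASE in both conditions and rose by 3.31 ± 0.69 (adjusted p = 0.013). A further plastid FBPase gene outside the 10, cpFBPII, was named after its value was seen and was not called (0.62 ± 0.5, edgeR, adjusted p = 0.4). PRK had 462, 242 and 381 RPKM in L4h against 108, 58.3 and 38.9 RPKM in Dark. PRK showed the smallest rise among the enzyme genes, 2.43 ± 0.65 (adjusted p = 0.03). In a single edgeR fit of all 15 libraries 7 of the 10 genes passed, where 10.7% of all genes were called higher. There PRK (adjusted p = 0.051) and GAPA (adjusted p = 0.058) no longer passed.

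The CP12 genes had unlike levels. CP12-1 had 465, 373 and 472 RPKM in L4h against 350, 224 and 163 RPKM in Dark. The highest Dark library came within reach of the lowest L4h library, without overlap, and the log2 change of 0.86 ± 0.39 missed the threshold (adjusted p = 0.15). With the replicate number as a block the change was 0.95 ± 0.26 and passed (adjusted p = 0.039), in a fit that called 15.5% of all genes higher. That fit also blocks the D4h libraries, whose numbers are not paired with L4h or Dark. CP12-2 had 250, 85.0 and 80.0 RPKM in L4h against 12.4, 5.78 and 4.67 RPKM in Dark. Replicate 1 was the highest in both conditions and the groups lay far apart, and CP12-2 rose by 4.22 ± 0.86 (adjusted p = 0.012). CP12-1 was the highest of the 10 genes in Dark (245 ± 95.1 RPKM, SD, n = 3) and the fifth in L4h (437 ± 55.2 RPKM).

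The calls for L4h against Dark in total RNA rested on the libraries of both conditions. Leaving out Dark replicate 2 left 1 of the 10 past the threshold, where 3.95% of all genes were called higher. Leaving out Dark replicate 3 left 2 (4.75% of all genes) and Dark replicate 1 left 9 (11.4%). Omitting L4h replicate 1 or 3 left 7 (10.9% and 6.94%), and L4h replicate 2 left 8 (7.83%). Without all libraries of number 2 or of number 3, none of the 10 passed, where 0.0552% and 0.229% of all genes were called higher. Without those of number 1, 10 passed, where 24% of all genes were called higher. Across these omissions the log2 change of FBA1 stayed between 5.39 and 5.95 and that of CP12-1 between 0.59 and 1.28.

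**Figure D2:**
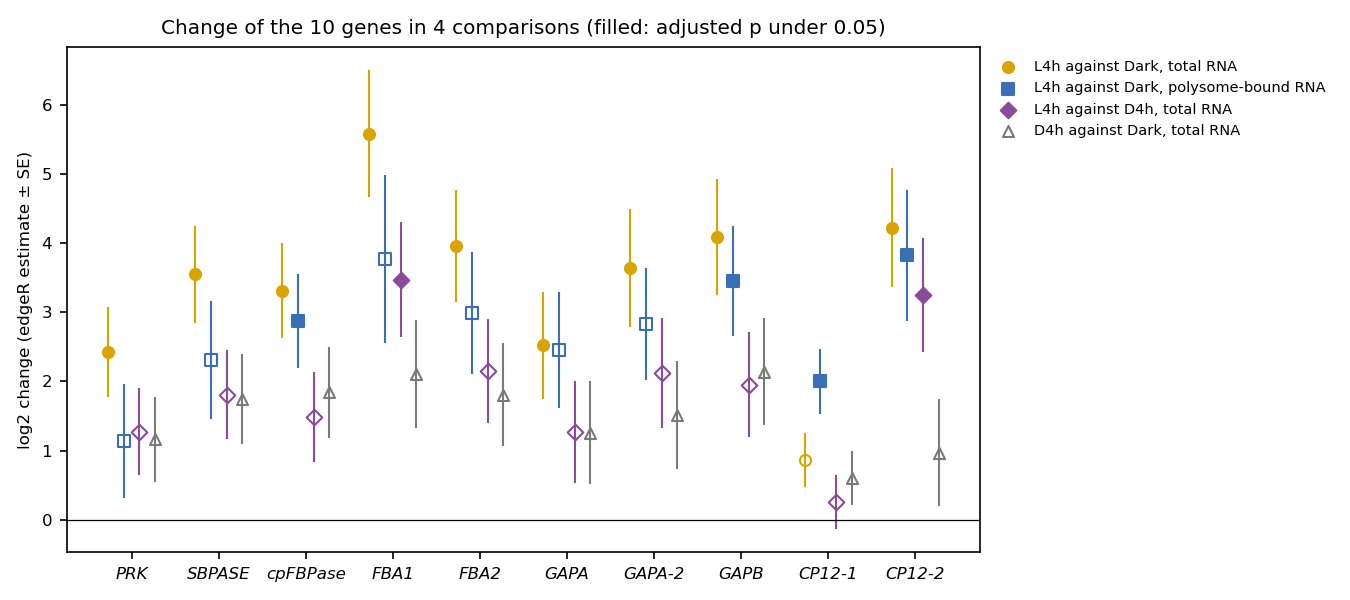
Log2 change (edgeR estimate, bars are ± SE) of each gene in 4 comparisons, with filled symbols where the adjusted p was under 0.05. FBA1 shows the largest change in total RNA (5.58), CP12-1 the smallest (0.86), and no symbol of D4h against Dark is filled.

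A further 4 h in darkness gave no call in any of the 10 genes, and D4h replicate 1 went apart from the other D4h libraries. GAPA had 688, 136 and 118 RPKM in D4h, and GAPB had 356, 47.2 and 42.6 RPKM. FBA1 had 78.2, 9.91 and 8.74 RPKM in D4h, and CP12-2 had 34.7, 6.71 and 6.6 RPKM. In each of these genes D4h replicate 1 lay well above replicates 2 and 3, which stood near the Dark libraries. Over the 10 genes it held 2.31 (CP12-1) to 8.38 (FBA1) times the mean of replicates 2 and 3, and for CP12-1 (635, 273 and 277 RPKM) it exceeded the L4h mean. PRK (331, 81.6 and 78.2 RPKM), SBPASE (238, 41.1 and 38.2 RPKM) and cpFBPase (117, 20.8 and 18.5 RPKM) showed the same split, as did FBA2 (440, 70.4 and 65.6 RPKM) and GAPA-2 (321, 48.6 and 46.5 RPKM).

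The estimates for D4h against Dark were positive for all 10 genes, 0.61 (CP12-1) to 2.14 (GAPB) on the log2 scale, and each had an adjusted p of 0.85 (edgeR). Called genes made up 0% of all 21735 tested, 822 of which had an unadjusted p under 0.05, among them 5 of the 10. SBPASE, cpFBPase and GAPB were higher in every D4h library than in any Dark library, 3 of the 10 against 7.48% of genes, and within the numbers, which are not paired here, all 10 were positive in 3 of 3. DESeq2 called 5 genes higher and 10 lower, none of them one of the 10, and limma called none. Without D4h replicate 1 the estimates ran from -0.22 (CP12-2) to 0.5 (cpFBPase). The summed RPKM of the 9 root markers was 527, 892 and 931 in D4h, and that of the 8 shoot markers 727, 724 and 724. The 3 endodermis genes were lower in replicate 1, at 0.561 to 0.599 of the mean of replicates 2 and 3. The shoot sum was level, but it was mostly the epidermis gene PDF1 (478, 531 and 534 RPKM), and its members were uneven. AS1, YAB3, FIL and GLK1, genes of leaf identity and chloroplast development, were at 1.88, 2.05, 3.92 and 4.36 times that mean in replicate 1, and STM, KNAT1, ATML1 and PDF1 at 0.632 to 0.898. The part of tissue makeup in the D4h split was not tested.

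Set against D4h, the dark control of the same age, L4h libraries were higher for all 10 genes by the estimate, and 2 passed the threshold, FBA1 and CP12-2. FBA1 rose by 3.47 ± 0.83 (11.1-fold, adjusted p = 0.027) and CP12-2 by 3.25 ± 0.82 (9.53-fold, adjusted p = 0.033), where 6.92% of all genes were called higher. These were also the 2 genes in which D4h replicate 1 stayed lowest relative to L4h, at 0.24 and 0.251 of the L4h mean. The groups did not overlap for 6 of the 10, against 13.1% of genes. PRK, cpFBPase, GAPA and CP12-1 overlapped through D4h replicate 1. Without that library 9 of the 10 passed, all but CP12-1, with GAPB at 3.64 and SBPASE at 3.18, and 15.3% of all genes were then called higher. Leaving out any other single L4h or D4h library left 0 of the 10, where 2.57% to 6.5% of all genes were called higher. D4h replicates 2 and 3 taken as 1 library also left 0, where 2.56% of all genes were called higher.

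In polysome-bound RNA all 10 genes were again higher in L4h than in Dark by the estimate, with 4 past the threshold without pairing and 10 with the replicate number as a block, under which 21.9% of all genes were called higher. The 4 were cpFBPase, GAPB, CP12-1 and CP12-2, and without pairing 5.5% of all genes were called higher and 5.01% lower. Groups did not overlap in 9 of the 10, all but PRK, as held for 13.8% of genes. The median log2 change was 2.85, beside -0.01 over all genes tested.

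CP12-1 had 1226, 763 and 723 RPKM in L4h polysomes against 324, 183 and 203 RPKM in Dark polysomes. All 3 L4h libraries lay well above the highest Dark library, and the log2 change was 2 ± 0.47 (3.99-fold, adjusted p = 0.04). CP12-2 had 722, 244 and 119 RPKM in L4h polysomes and 51.9, 13.5 and 16.8 RPKM in Dark polysomes. Replicate 1 was highest on both sides and the groups stayed apart, with a log2 change of 3.82 ± 0.95 (adjusted p = 0.047). GAPB had 565, 292 and 200 RPKM in L4h polysomes and 65.6, 20.5 and 15.3 RPKM in Dark polysomes, a rise of 3.45 ± 0.79 (adjusted p = 0.037). The cpFBPase values were 149, 76.7 and 53.5 RPKM in L4h polysomes and 23.8, 8.46 and 7.75 RPKM in Dark polysomes, a rise of 2.87 ± 0.68 (adjusted p = 0.041). In these 4 genes the replicate numbers kept nearly the same order in both conditions, with number 1 at the top.

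The other 6 genes did not pass without pairing. In these, Dark replicate 1 of polysome-bound RNA lay at 3.51 to 11.9 times the mean of the other Dark libraries, and in the 4 genes above at 1.68 to 3.66 times, so the ranges overlap. FBA1 had 678, 277 and 229 RPKM in L4h polysomes against 76.6, 7.0 and 5.84 RPKM in Dark polysomes. Dark replicate 1 of polysome-bound RNA thus held 11.9 times the mean of the other two, and the log2 change of 3.77 ± 1.21 missed the threshold (adjusted p = 0.1). With the block FBA1 changed by 4.64 ± 0.49 (adjusted p = 0.0014). FBA2 had 1264, 539 and 514 RPKM in L4h polysomes against 217, 46.6 and 40.2 RPKM in Dark polysomes, with a log2 change of 2.99 ± 0.88 (adjusted p = 0.08, with the block 0.00048). PRK was the one gene whose groups overlapped, with 349, 201 and 129 RPKM in L4h polysomes and 229, 58.5 and 32.0 RPKM in Dark polysomes. Its change was 1.14 ± 0.82 (adjusted p = 0.45) without the block and 1.52 ± 0.26 (adjusted p = 0.0073) with it. SBPASE, GAPA and GAPA-2 had log2 estimates of 2.31, 2.45 and 2.83 (adjusted p 0.14, 0.12 and 0.075), and all passed with the block (0.00036, 0.00066 and 0.00026). Within replicate numbers each of the 10 genes was higher in L4h polysomes in 3 of 3 pairs. Without Dark replicate 1 of polysome-bound RNA 10 of the 10 passed without a block, where 7.27% of all genes were called higher. Leaving out L4h replicate 3 left 1, where 3.18% of all genes were called higher. Leaving out L4h replicate 1 or 2 (3.89% and 1.88% of all genes) or Dark replicate 2 or 3 (1.5% and 2.59%) left 0.

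Polysome-bound RNA was next compared with total RNA of the same condition, and few of the 10 genes passed, a share near that over all genes. In L4h 1 of the 10 passed without pairing (CP12-1) and 2 with the replicate number as a block (CP12-1 and CP12-2), where 17.6% of all genes were called higher with the block. In Dark 1 passed with the block (CP12-2), against 16.7% of genes. None of the 8 enzyme genes passed in either condition in either fit. In L4h, CP12-1 was higher in polysome-bound than in total RNA by 1.41 ± 0.42 on the log2 scale (2.66-fold, adjusted p = 0.036, with the block 0.0043), where 11.7% of all genes were called higher. Within the 3 numbers its polysome-bound level exceeded its total level by 1.92, 1.14 and 0.9. CP12-2 was higher in L4h polysomes by 1.8 ± 0.83 (adjusted p = 0.15), and with the block by 1.56 ± 0.29 (adjusted p = 0.0035). Its differences within numbers were 2.05, 1.63 and 0.86, all positive like those of CP12-1. Levels of polysome-bound and total RNA were each scaled to their own libraries, so these values are relative to the typical gene and not a share of molecules on ribosomes.

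In Dark none of the 10 genes passed without pairing, where 10.6% of all genes were called higher. The unadjusted p (edgeR) was under 0.05 for 2 of them, beside 7558 of all 21924 genes in either direction. DESeq2 called 1, where it called 14.7% of all genes higher. None was called by limma, where 7.18% and 6.83% of all genes were called higher with the 2 pseudocounts. CP12-2 had a log2 difference of 2.14 ± 0.85 between polysome-bound and total RNA in Dark (adjusted p = 0.099), and with the block of 1.97 ± 0.29 (adjusted p = 0.0017). Its differences within numbers were 2.36, 1.3 and 2.21. CP12-1 by contrast showed 0.22 ± 0.41 in Dark (adjusted p = 0.76), with differences of 0.19, -0.21 and 0.7 that did not share a sign. FBA1 had the largest estimate in Dark, 2.43 ± 0.94 (adjusted p = 0.091), but its differences of 3.3, 0.36 and 0.46 were uneven, with replicate 1 far above the others. Without Dark replicate 1 of polysome-bound RNA the FBA1 estimate was 0.07, and without Dark replicate 2 it was 2.93 and passed (adjusted p = 0.042).

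For the enzyme genes, polysome-bound and total RNA differed in L4h by -0.31 (PRK) to 0.68 (FBA1) on the log2 scale, with adjusted p of 0.64 to 0.96. Within numbers, PRK, SBPASE, cpFBPase, GAPA and GAPB were higher in L4h polysomes in 1 of 3 pairs, and FBA1, FBA2 and GAPA-2 in 2 of 3. In every one of the 8 the pair numbered 3 was negative and the pair numbered 1 positive. On the deposited RPKM scale the median difference of polysome-bound from total RNA over all genes was -0.155 (L4h) and -0.138 (Dark) in log2(RPKM + 1), and there the estimates of FBA2 and GAPA-2 in L4h and of cpFBPase, GAPB and CP12-1 in Dark turned negative. The CP12-1 call in L4h was lost when any library of the comparison but L4h replicate 2 of polysome-bound RNA was left out. Its log2 difference was 0.89 without L4h replicate 1 of polysome-bound RNA and 1.52 without L4h replicate 3 of that RNA. Without 1 of the total RNA libraries it was 1.28 to 1.48. In L4h limma on RPKM made no call among the 10, where it called 7.47% and 7.19% of all genes higher with the 2 pseudocounts. Without all libraries of number 1, SBPASE was lower in L4h polysomes (-0.85, adjusted p = 0.047) and CP12-2 higher (1.3, adjusted p = 0.023).

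**Figure D3:**
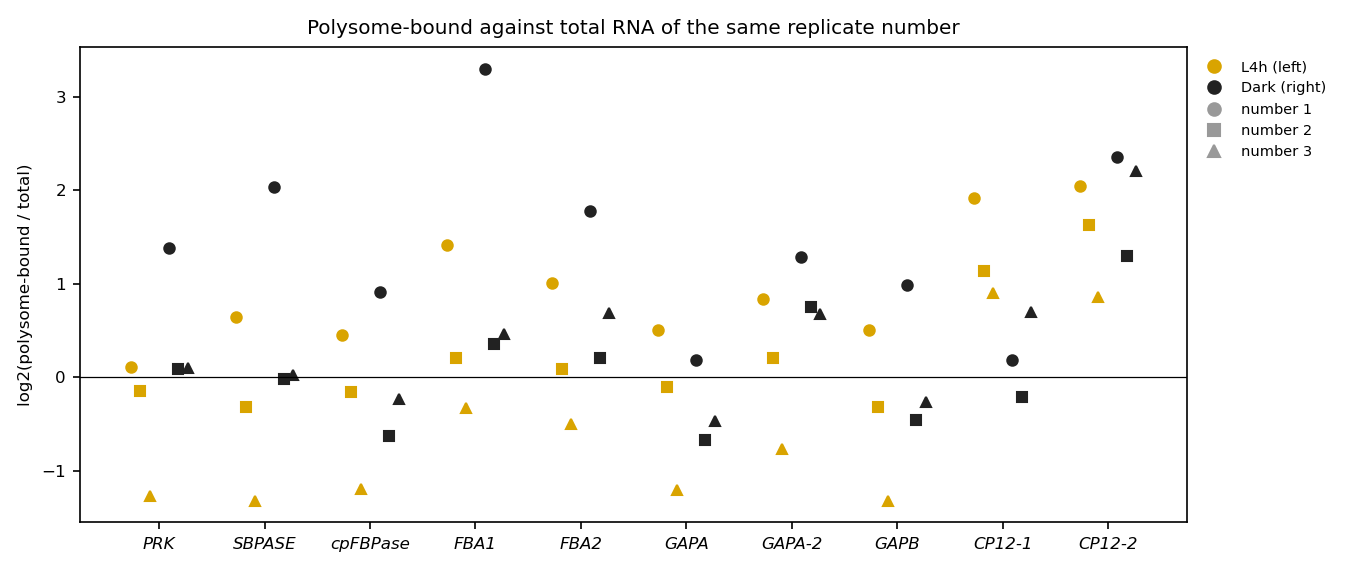
Log2 ratio of polysome-bound to total RNA for libraries of the same condition and replicate number, for each gene, with L4h at the left and Dark at the right of each pair of columns. All 6 ratios of CP12-2 and all 3 L4h ratios of CP12-1 lie above 0, while the enzyme genes in L4h straddle 0 with number 3 lowest.

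Whether the light response differed between the kinds of RNA was tested as an interaction, and none of the 10 genes passed. Over all 21924 genes 0% were called by edgeR, 115 had an unadjusted p under 0.05, none of them one of the 10, and DESeq2 called 2 genes higher and 1 lower. CP12-1 was the only one of the 10 with a positive estimate, 1.19 ± 0.59 (unadjusted p = 0.067, adjusted p = 1), as its light response was 2 in polysome-bound and 0.86 in total RNA. Within the 3 numbers the CP12-1 value was 1.72, 1.35 and 0.21, positive in 3 of 3. The other 9 ran from -1.75 (FBA1) to -0.01 (GAPA). Within the numbers PRK, SBPASE, FBA1, FBA2 and GAPA-2 were negative in 3 of 3, cpFBPase, GAPB and CP12-2 in 2 of 3, and GAPA in 1 of 3. SBPASE stayed negative in every fit with a library left out, though at -0.01 without Dark replicate 1 of polysome-bound RNA. The other 8 turned positive in at least 1 such fit, as did FBA1 (0.57) and GAPA (1.23) without that library.

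How paralogs stood to each other was read from their shares within a library, where the scaling drops out. FBA1 made up 28.9%, 32.0% and 28.3% of the summed RPKM of FBA1 and FBA2 in L4h total RNA, against 10.9%, 11.9% and 14.5% in Dark. All L4h libraries lay above all Dark libraries, as they did in polysomes (34.9%, 33.9% and 30.8% against 26.1%, 13.1% and 12.7%). GAPA-2 made up 46.7%, 44.2% and 41.7% of the A subunit RPKM in L4h total RNA against 25.7%, 29.5% and 27.3% in Dark. In polysomes that contrast was not seen, with 52.5%, 49.7% and 49.1% in L4h and 42.7%, 52.9% and 45.6% in Dark, which overlap. GAPA-2 held a higher share in Dark polysomes (47.1% ± 5.24, SD, n = 3) than in Dark total RNA (27.5% ± 1.92), without overlap.

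CP12-1 made up 65.0%, 81.5% and 85.5% of CP12 RPKM in L4h total RNA, against 96.6%, 97.5% and 97.2% in Dark. It stayed the major form in all 15 libraries, with a lower share in each L4h library than in any Dark library. In polysomes its share was 62.9%, 75.8% and 85.8% in L4h and 86.2%, 93.1% and 92.4% in Dark, apart by less than 1 percentage point at the nearest libraries. GAPB made up 27.1%, 30.9% and 31.6% of the summed RPKM of GAPA, GAPA-2 and GAPB in L4h total RNA against 12.1%, 20.1% and 21.4% in Dark. The GAPB share was thus higher in light without overlap, and likewise in polysomes (25.9% ± 1.08 against 17.0% ± 1.8, SD, n = 3 each). In all, 20 such comparisons of shares were made. For each that did not overlap the exact two-sided permutation p was 0.1, the smallest that 3 against 3 libraries allow, and 0.13 after adjustment over the 20. The coding sequences of GAPA and GAPA-2 share 85.8% of bases, those of FBA1 and FBA2 84.1%, those of CP12-1 and CP12-2 74.5%, and no 50-base stretch of their exons recurs in another gene, so reads could be told apart at that length.

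**Figure D4:**
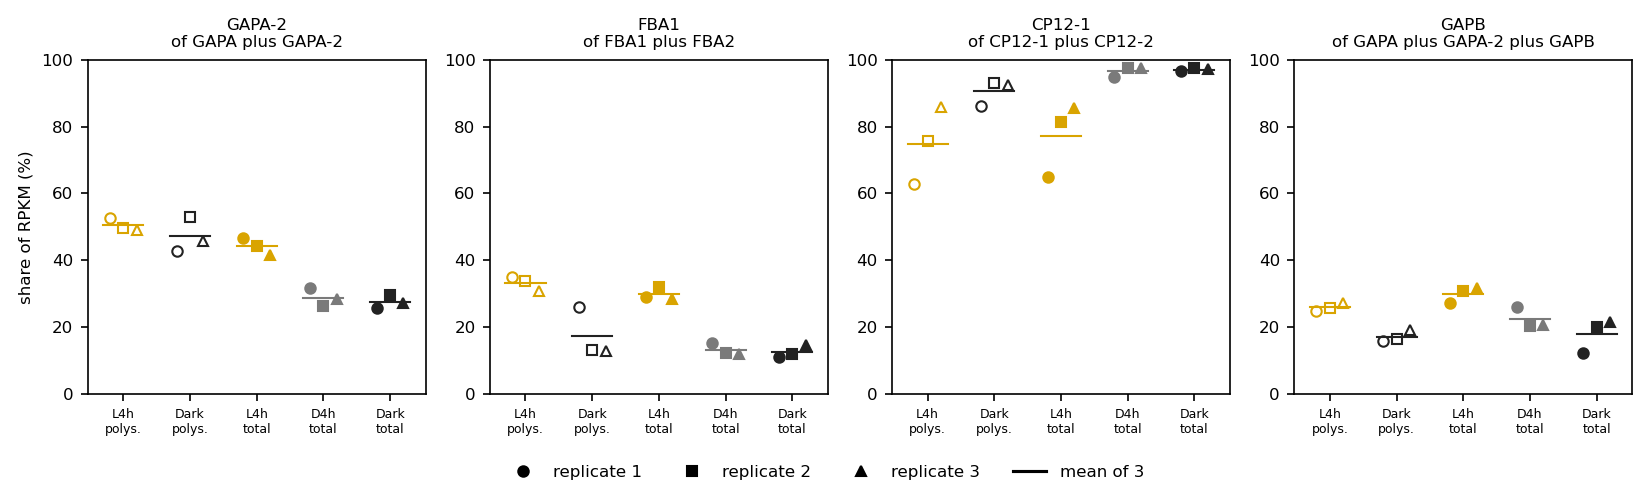
Share of each named gene in the summed RPKM (%) of the genes in its panel title, in each library, by group. Polysome-bound RNA is shown as open and total RNA as filled symbols, with lines for means of 3. FBA1 and GAPB take a larger share in L4h than in Dark in both kinds of RNA, CP12-1 a smaller one, and GAPA-2 a larger one in total RNA.

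By level, the 10 genes formed a loose order that differed between conditions. In L4h total RNA the means ran from FBA2 (779 RPKM) through GAPA (691 RPKM), GAPA-2 (551 RPKM), GAPB (524 RPKM), CP12-1 (437 RPKM), PRK (361 RPKM), SBPASE (338 RPKM) and FBA1 (325 RPKM) to CP12-2 (138 RPKM) and cpFBPase (132 RPKM). Only FBA1 and CP12-2 among these neighbours had ranges that did not overlap. In Dark total RNA the order ran from CP12-1 (245 RPKM) and GAPA (122 RPKM) through PRK (68.5 RPKM) and FBA2 (51.0 RPKM) to CP12-2 (7.63 RPKM) and FBA1 (6.95 RPKM). There only SBPASE (29.7 RPKM) and cpFBPase (13.7 RPKM) were neighbours without overlap. In L4h polysomes CP12-1 stood first (904 ± 279 RPKM, SD, n = 3) and cpFBPase last (93.0 ± 49.7 RPKM), and every gene's range overlapped that of its neighbour.

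Other nuclear genes of the cycle were counted beside the 10. Of 15 such genes (Rubisco small subunits and activase, phosphoglycerate kinases, transketolases and others) 9 rose and 1 fell in L4h total RNA, with a median log2 change of 2.04. Rubisco activase (RCA), which frees Rubisco of inhibitory sugar phosphates, rose by 4.75 ± 0.93 (adjusted p = 0.01), and the transketolase gene TKL1 by 1.76 ± 0.44 (adjusted p = 0.024). The gene that fell, named after its value was seen, was CP12-3, the third CP12 gene. It had 9.58, 6.39 and 4.19 RPKM in L4h against 20.2, 17.8 and 19.7 RPKM in Dark. The CP12-3 groups did not overlap, and its log2 change was -1.48 ± 0.33 in total RNA (adjusted p = 0.016) and -1.02 ± 0.24 in polysome-bound RNA (adjusted p = 0.042), opposite in sign to CP12-1 and CP12-2. In polysome-bound RNA 2 of the 15 rose and 1 fell.

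Thioredoxins and their reductases, which switch GAPDH, PRK and the bisphosphatases on in light and reduce CP12, were counted next, together with the triose phosphate exporter TPT. In L4h total RNA 7 of these 10 genes rose and none fell, with a median of 2.26. TRXf1, the f-type thioredoxin that acts on FBPase, rose by 4.2 ± 0.97 (adjusted p = 0.019), and TPT stood at 2.41 ± 0.8 (adjusted p = 0.061). In polysome-bound RNA TRXf1 was the 1 gene of the list past the threshold (3.54 ± 0.78, adjusted p = 0.033). The 12 cytosolic and glycolytic counterparts had a median of 0.58 in total RNA, with 4 called higher and none lower. GAPC2, the cytosolic GAPDH gene of highest level, rose by 1.55 ± 0.29 (adjusted p = 0.0085), and FBA8, the cytosolic aldolase gene of highest level, stood at -0.29 ± 0.2 (adjusted p = 0.31). Of the minor aldolase genes in that list, named after their values were seen, FBA5 had 16.1, 11.6 and 11.8 RPKM in L4h against 0.0189, 0.0766 and 0.0825 RPKM in Dark, a rise of 7.77 ± 1.41 (adjusted p = 0.008) that exceeded the estimate of FBA1. FBA7 had 13.7, 12.8 and 14.2 RPKM in L4h against 1.67, 2.07 and 1.59 RPKM in Dark and rose by 2.97 ± 0.58 (adjusted p = 0.011). No counterpart passed in polysome-bound RNA.

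**Figure D5:**
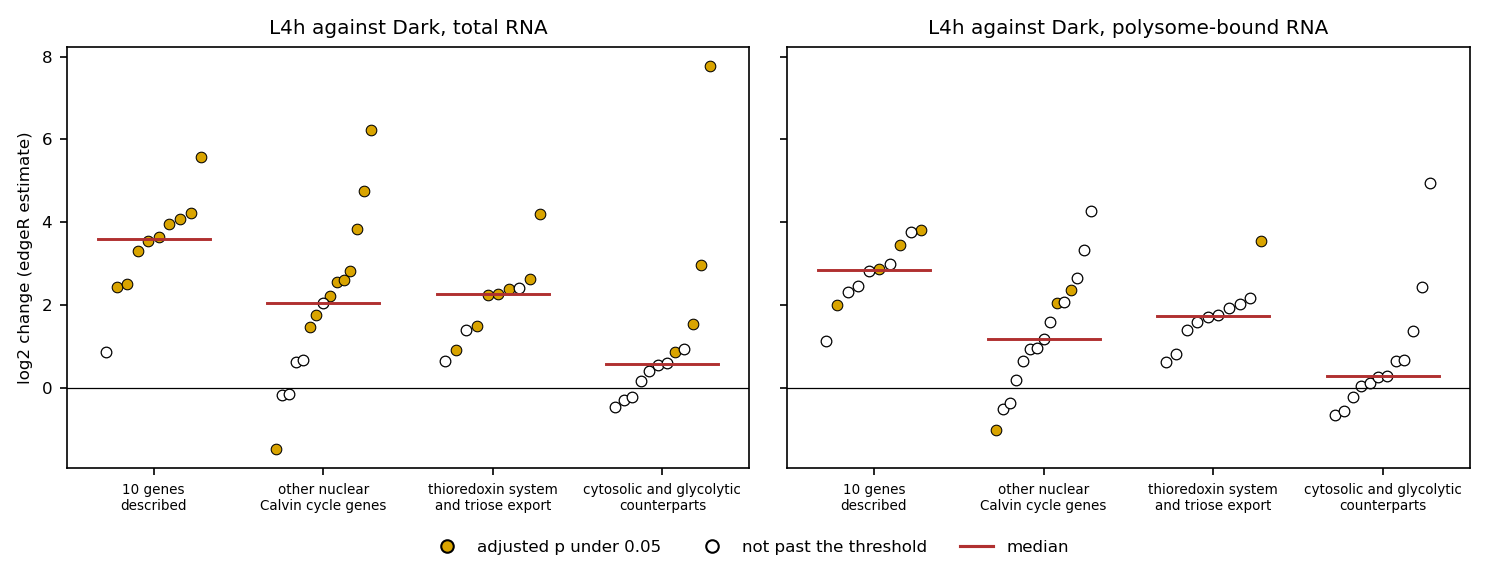
Log2 change (edgeR estimate) of single genes in L4h against Dark for the 10 genes and 3 related lists, in total RNA (left) and polysome-bound RNA (right). Filled points had an adjusted p under 0.05 and red lines are medians, which in total RNA are 3.6, 2.04, 2.26 and 0.58 from left to right.

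Across the 15 libraries the 10 genes followed one another closely, as a description of libraries that share conditions and numbering. FBA2 correlated most with the mean of the other 9 (Pearson r of standardized log2 CPM 0.996, n = 15 libraries) and CP12-1 least (0.864). Outside the group, the profile most like the mean of the 10, among 12359 genes, was that of GOX1 (AT3G14420), which encodes the photorespiratory enzyme glycolate oxidase (r = 0.997). Next came NDF5 (AT1G55370) and the minor antenna gene LHCB5 (AT4G10340), both at 0.995, then PTAC16 (AT3G46780) and AT5G38520, both at 0.994, and AT1G77090, AT1G16080 and PSB33 (AT1G71500), all at 0.993. No p-value is given, since the genes were picked for their likeness.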

How the data were processed

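The members and gene lists were chosen with earlier results of these data known. The authors deposited reads per gene, per the file headers. Since 84.4% to 87.2% of these values are whole (tolerance 1e-06) and the rest are not, they were taken as estimated counts without normalization, as deposited by the authors, and rounded before testing. The authors also deposited RPKM, per kilobase of a listed gene length and per M reads of the library, per the file headers, which serve here for levels and shares. The build is TAIR10, per the submitters' processing notes. Aligner, counting tool, kit and strand are not given in the sources used here. PRK, cpFBPase and GAPA overlap a neighbouring gene by 33, 167 and 13 bases, where reads cannot be assigned. The promoter of 1 gene is not reported here. The series text speaks of 2 replicates, and 3 per group were used.

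Tests were run in edgeR 4.0.16 under R 4.3.3, with TMM scaling, filterByExpr at a minimum count of 10, the quasi-likelihood test, and p adjusted over all genes tested by Benjamini-Hochberg, called under 0.05. The fits held the 9 total RNA libraries, the 6 polysome-bound libraries, or the 12 libraries of L4h and Dark for the kinds of RNA and the interaction. The SE was taken as the log2 change divided by the square root of F. All 10 members passed the filter. Shares were compared by exact two-sided permutation tests. Each fit was tested on simulated data. The named genes are the 10 members, up to 6 of each list by level, and the 8 genes of most similar profile. Likeness was taken over genes of at least 10 CPM (log2 CPM with a prior count of 2). Genes said to be named after their values were seen stand outside this rule.

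The main tests held no replicate block, which was fitted only as an alternative. Libraries with the same replicate number were counted as paired if their deviations from the group means had a correlation over 0.1 for each of the 3 numbers. In total RNA, L4h and Dark met this (r 0.39 to 0.6), as they did in polysome-bound RNA (0.56 to 0.7). Polysome-bound with total RNA met it in L4h (0.12 to 0.38) and in Dark (0.28 to 0.47). Pairs of D4h with L4h (-0.27 to 0.3) and with Dark (0.08 to 0.15) did not. The alternatives tried were the DESeq2 test (1.42.0), RLE in place of TMM, no low-count filter or one on RPKM (1 or more in 3 libraries), limma 3.58.1 on log2(RPKM + 1) and log2(RPKM + 0.1), the replicate block, a single fit of all 15 libraries, D4h replicates 2 and 3 summed, and each library or replicate number left out.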

Additional observations from a re-analysis of the deposited data

How the results depend on the processing

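Of the 10 members' log2 changes under the alternatives, 170 of 170 kept their direction in L4h against Dark in total and 170 of 170 in polysome-bound RNA, 180 of 180 in L4h against D4h, and 179 of 180 in D4h against Dark. Polysome-bound against total RNA kept 144 of 170 in L4h and 149 of 170 in Dark, and the interaction 212 of 230. All 20 differences in paralog shares moved by less than 1 SD when the shares were taken from expected counts. The other alternatives could not show a larger move. Differences within replicate numbers have the same mean as the groups, and omitting 1 of 3 libraries cannot shift a mean that far. The replicate block covers every library of a fit, so in total RNA it includes D4h, whose numbers are not paired with L4h or Dark. For L4h against D4h it called 8 members, where 10.6% of all genes were called higher. A fit that leaves out a number rests on 2 libraries a group, and one in which D4h replicates 2 and 3 are 1 library on 2 D4h values. The cause of the changes below was not tested, and neither was any part of depth, which was at least 60.8 M reads. All members passed the filter.

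Member counts are given here with the share of all genes called the same way in that fit. Members called higher in L4h against D4h were 5 with DESeq2 (12.3%), 5 with limma on log2(RPKM + 1) (6.63%) and 6 on log2(RPKM + 0.1) (6.62%). They were 1 with all 15 libraries (5.9%) and 0 with D4h replicates 2 and 3 as 1 library (2.56%), against 2 (6.92%). In polysome-bound RNA, L4h against Dark, they were 8 with DESeq2 (10.3%) and 8 with either limma fit (5.54% and 5.74%). They were 10 with the replicate block (21.9%) and 7 with all 15 libraries (9.04%), against 4 (5.5%). In polysome-bound against total RNA in L4h they were 0 with limma (7.47% and 7.19% with the 2 pseudocounts) and 2 with the block (17.6%), against 1 (11.7%). In Dark they were 1 with DESeq2 (14.7%) and 1 with the block (16.7%), against 0 (10.6%). With libraries left out they ranged from 0 to 10 in L4h against Dark in total RNA (0.0552% to 24%) and from 0 to 10 in L4h against D4h (0.0046% to 24.3%). In polysome-bound RNA they ranged from 0 to 10 (0% to 9.78%). In polysome-bound against total RNA they ranged from 0 to 2 in L4h (0% to 14.1%), with 0 to 1 called lower (0% to 9.84%), and from 0 to 1 in Dark (0% to 11.4%). The replicate block changed no other count of members by more than 1.5 times.

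Over all genes, DESeq2 called 3408 lower in L4h against Dark in total RNA (2221 by edgeR), 5 higher and 10 lower in D4h against Dark (0 each), 2658 higher and 2590 lower in L4h against D4h (1504 and 1628), 2145 and 1861 in polysome-bound RNA (1154 and 1051), and 2 higher and 1 lower in the interaction (0 each), where limma on log2(RPKM + 0.1) called 1 higher. The block called 2308 genes higher in L4h against D4h, 4584 higher and 4475 lower in polysome-bound RNA, 3853 higher and 3354 lower in polysome-bound against total RNA in L4h (2566 and 2007), and 3659 and 3437 in Dark (2323 and 2048). D4h replicates 2 and 3 as 1 library gave 566 higher and 747 lower in L4h against D4h, and all 15 libraries gave 1995 and 1735 in polysome-bound RNA. For polysome-bound against total RNA, limma called 1638 higher and 3235 lower on log2(RPKM + 1) and 1577 and 3016 on log2(RPKM + 0.1) in L4h, and 1497 higher on log2(RPKM + 0.1) in Dark. With libraries left out, genes called higher and lower ranged from 12 to 5241 and 12 to 5283 in L4h against Dark in total RNA, 1 to 5306 and 4 to 4940 in L4h against D4h, 0 to 2086 and 0 to 1423 in polysome-bound RNA, 0 to 3122 and 0 to 2172 in polysome-bound against total RNA in L4h, 0 to 2506 and 0 to 1980 in Dark, and 0 to 1 each in the interaction.

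Directions that turned were these. On log2(RPKM + 1) and log2(RPKM + 0.1), polysome-bound against total RNA was -0.11 for FBA2 and -0.21 for GAPA-2 in L4h with both pseudocounts (0.38 and 0.32 by edgeR), and in Dark -0.21 and -0.23 for cpFBPase, -0.15 and -0.16 for GAPB and -0.03 and -0.03 for CP12-1 (0.25, 0.39 and 0.22 by edgeR). The GAPA interaction was 0.0 on log2(RPKM + 0.1) (-0.01 by edgeR). With libraries left out, CP12-2 in D4h against Dark ran from -0.22 to 1.58. In polysome-bound against total RNA of L4h, the log2 changes ran from -0.25 to 1.05 for FBA1, -0.44 to 0.74 for FBA2, -0.6 to 0.66 for GAPA-2, -1.04 to 0.36 for SBPASE, -0.93 to 0.26 for cpFBPase, -0.89 to 0.32 for GAPA, -0.99 to 0.24 for GAPB and -1.04 to 0.03 for PRK. In Dark they ran from -0.45 to 1.47 for PRK, -0.09 to 1.49 for SBPASE, -0.56 to 0.56 for cpFBPase, -0.05 to 1.78 for FBA2, -0.63 to 0.74 for GAPB, -0.14 to 0.61 for CP12-1 and -1.36 to 0.72 for GAPA. The interaction ran from -0.83 to 1.23 for GAPA, -1.7 to 0.55 for CP12-2, -1.97 to 0.1 for PRK, -1.18 to 0.39 for cpFBPase, -2.69 to 0.57 for FBA1, -1.74 to 0.38 for FBA2, -1.69 to 0.2 for GAPA-2 and -1.39 to 0.4 for GAPB.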
